A study of Mus musculus with 5 samples.

Results

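The somatic cells of the mouse ovary were compared between 2 and 3 wk of age within 2 lineages, granulosa cells and mesenchymal cells. Cells with at least 1000 detected genes and under 15% of their UMIs from mitochondrially encoded genes were sorted by a pair of genes. A cell with at least 5 UMIs of Inha and none of Dcn was called granulosa, and a cell with at least 3 UMIs of Dcn and at most 4 of Inha was called mesenchyme. A UMI marks 1 captured RNA molecule. The choice gave 2378 granulosa and 3649 mesenchymal cells at 2 wk, and 2971 granulosa and 2759 mesenchymal cells at 3 wk. These are 11757 of the 18724 cells deposited for both ages and of the 48163 cells of the whole series. Inha encodes the inhibin alpha subunit of granulosa cells and Dcn the stromal proteoglycan decorin, and because both chose the cells neither is counted in any result.

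The series holds dissociated ovarian cells of untreated C57BL6/J females at 5 weekly ages, with 1 library per age, made to follow the ovary while the first wave of follicles grows and is remodelled. Ovaries were digested with trypsin at 37 °C, live cells were sorted by exclusion of the dye SYTOX Orange, and libraries were made with 10x Genomics 3′ kits, which read the 3′ end of each transcript. The libraries at 2 and 3 wk were counted with the same version of Cell Ranger (3.1.0) on the mouse genome mm10. How many mice went into a library is not given in the sources used here. With 1 library per age there is no replicate, no test and no p-value, and the spread between mice was not measured. Every interval below is a 95% interval for counting error only, exact Poisson for a level, exact binomial (Clopper-Pearson) for a share, and exact for a ratio with the total of its UMIs held fixed. For a ratio of ratios it is an approximate Poisson interval (delta method) on the log scale. A gene past 2-fold is therefore a description of these libraries.

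Granulosa cells surround the oocyte, divide as the follicle grows, and make anti-Müllerian hormone, inhibins, activins and, later, estrogen. The mesenchyme outside the follicle holds stromal fibroblasts, smooth muscle-like cells and the progenitors of theca, the layer that makes androgen. In the mouse, follicles of the first wave pass from the preantral to the early antral stage during the weeks compared here.

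The UMIs of each lineage were summed within a library and scaled to a total of 1000000 UMIs (CPM). The sums held 43432503 and 43022686 UMIs in granulosa at 2 and 3 wk, and 48758119 and 26605007 UMIs in mesenchyme. The median cell was shallower at 3 wk, with 17355.5 and 13471 UMIs in granulosa and 11992 and 8271 UMIs in mesenchyme at 2 and 3 wk. Mitochondrially encoded genes took 8.59% and 6.24% of granulosa UMIs and 4.49% and 3.12% of mesenchymal UMIs. Both libraries shared 20 cell barcodes. Granulosa cells made up 25.1% of the deposited cells at 2 wk (24.2% to 25.99%) and 32.1% at 3 wk (31.2% to 33.1%). Mesenchymal cells made up 38.5% (37.5% to 39.5%) and 29.8% (28.9% to 30.8%). After cells were thinned to 5000 UMIs before the choice, mesenchyme took 29.8% of the deposited cells at 2 wk and 18.03% at 3 wk. Cells under 5000 UMIs could not be thinned and were not counted, but stayed in the total. They included 73 mesenchymal cells at 2 wk and 490 at 3 wk. The shares of the lineages thus depend on depth, and those after thinning are not shares at equal depth. At the limit of the rule, exactly 5 Inha UMIs were found in 40 and 23 granulosa cells and exactly 3 Dcn UMIs in 160 and 309 mesenchymal cells at 2 and 3 wk. With at least 6 Dcn UMIs required, mesenchyme took 32.8% and 21.5% of the cells.

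The granulosa and mesenchyme marker lists matched the lineage names. The 10 granulosa markers, led by Kctd14, Serpine2 and Amh, summed to 4918 and 4433 CPM in granulosa at 2 and 3 wk and to 421 and 311 CPM in mesenchyme. The 10 mesenchyme markers, led by the fibrillar collagens Col1a2, Col1a1 and Col3a1, summed to 9498 and 6858 CPM in mesenchyme and to 276 and 275 CPM in granulosa. Smooth muscle markers were high in mesenchyme at both ages (5289 and 4834 CPM), so this lineage mixes stromal and contractile cells. At least 5 UMIs of Acta2, smooth muscle actin, were found in 54.9% of mesenchymal cells at 2 wk and 53.2% at 3 wk. The 8 theca markers were not higher in mesenchyme at 2 wk. They summed to 82.1 and 36.9 CPM in granulosa and 43.5 and 43.4 CPM in mesenchyme at 2 and 3 wk. Whether theca cells passed the granulosa choice was not tested. Markers of blood cells summed to 6.56 and 19.9 CPM in granulosa and 28.7 and 15.5 CPM in mesenchyme. Endothelial markers summed to 19.6 and 18.7 CPM and 81.9 and 76.6 CPM, and oocyte markers to 1.89 and 1.81 CPM and 9.84 and 7.78 CPM. Red cell markers summed to 0.0921 and 1.39 CPM and 0.08204 and 2.63 CPM. Markers of the ovarian surface epithelium in mesenchyme were 94.04 and 38.98 CPM, and their part in the mesenchymal results was not tested.

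A set of genes differed at 4 wk from 5 and 6 wk in every group of cells, and is described as standing apart at 4 wk. To find it without the values under comparison, the 4 wk library was set against the mean of the 5 and 6 wk libraries in granulosa, in mesenchyme and in the cells of neither lineage. The last passed the filters but fit neither choice. They numbered 1729 and 1930 at 2 and 3 wk, and 283 and 383 of them had exactly 2 Dcn UMIs. Of 8921 genes, 444 were at least 1.5-fold lower at 4 wk in all of these groups and 64 at least 1.5-fold higher. The 444 genes had a median log2 ratio (3 wk over 2 wk) of -0.82 in granulosa, -0.86 in mesenchyme and -0.89 in the cells of neither lineage, against -0.05, -0.06 and -0.12 for the 8413 genes that did not stand apart. By their medians these genes were thus lower at 3 wk than at 2 wk in each of these groups, as they were by choice at 4 wk against 5 and 6 wk. Rpa3, a subunit of the replication protein that coats single-stranded DNA, measured 45.4 CPM (43.4 to 47.5) in granulosa at 2 wk, 5.997 CPM (5.29 to 6.78) at 3 wk and 6.62, 30.9 and 47.97 CPM at 4, 5 and 6 wk. In mesenchyme it measured 36.9 CPM, 4.698 CPM and 4.12, 21.3 and 31.4 CPM at the same ages. The last 500 bases of the longest transcript of the 444 genes had a median GC content of 39.8%, against 43.4% for the genes that did not stand apart and 52.1% for the 64. The link with GC content was not confined to these sets. Over all matched genes, its Spearman correlation with the log2 ratio was 0.22 in granulosa (9741 genes) and 0.33 in mesenchyme (9908 genes). With 1 library per age, library and age cannot be told apart, and what separates the libraries was not tested.

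Most genes kept their level between 2 and 3 wk, and those past 2-fold were mostly lower at 3 wk. Of 9745 genes with a mean of at least 5 CPM in granulosa, 132 (1.35%) were at least 2-fold higher at 3 wk and 373 (3.83%) at least 2-fold lower. In mesenchyme 67 of 9913 genes (0.676%) were higher and 345 (3.48%) lower. Within 1.5-fold stayed 84.0% of the genes in granulosa and 84.6% in mesenchyme, with median log2 ratios of -0.07 and -0.09. Among the 8921 genes that could be read in both lineages, 18 (0.202%) were past 2-fold higher in both and 150 (1.68%) past 2-fold lower in both. A gene was counted in 1 lineage alone when it was past 2-fold there, within 1.5-fold in the other, and its ratio differed by at least 2-fold between the lineages with an interval clear of 1. Granulosa alone held 28 higher genes (0.314%) and 44 lower genes (0.493%), and mesenchyme alone held 6 higher (0.0673%) and 12 lower (0.135%). Only Igf1 and Ryr2 were past 2-fold in opposite directions. The remaining genes past 2-fold lay between these limits or were read in 1 lineage only.

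**Figure D1:**
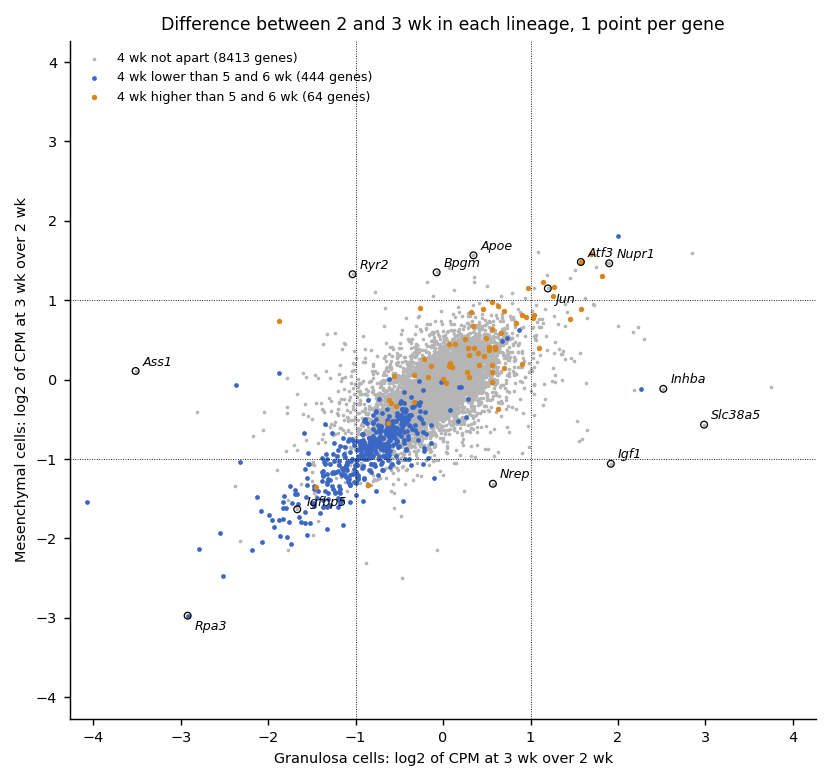
Each point is 1 of 8921 genes, placed by its log2 ratio of CPM (3 wk over 2 wk) in granulosa cells (x axis) and in mesenchymal cells (y axis), with dotted lines at 2-fold. Colours mark the 444 genes that were lower and the 64 that were higher at 4 wk than at 5 and 6 wk in every group of cells, and the 444 lie along the diagonal in the lower left, while Inhba, Slc38a5, Ass1, Apoe, Igf1 and Ryr2 lie off it.

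The genes lower in both lineages were for the larger part genes that stood apart at 4 wk. Of the 150, 118 (78.7%) were among the 444 genes low at 4 wk, against 4.98% of all genes. In the cells of neither lineage, 138 of the 150 were also past 2-fold lower. Of all 8921 genes, 363 were past 2-fold there in the direction of their granulosa ratio. Without the genes that stood apart, the count past 2-fold in both lineages went from 168 to 42, 11 higher and 31 lower, so the shared part of the comparison rests on them. Rpa3 was 7.57-fold lower (6.65 to 8.65) at 3 wk in granulosa and 7.85-fold lower (6.55 to 9.49) in mesenchyme, where it was 12.3-fold lower after thinning. Snhg6, a host transcript of small nucleolar RNA, went from 134 to 23.3 CPM in granulosa and from 102 to 18.3 CPM in mesenchyme, and stood at 31.8, 92.4 and 136 CPM in granulosa at 4, 5 and 6 wk. Pfn1, the actin-binding protein profilin, went from 409 to 97.8 CPM and from 483 to 117 CPM, with 94.6, 261 and 305 CPM later in granulosa. Sdhd, a subunit of succinate dehydrogenase, and Ost4, a subunit of the enzyme that attaches N-linked sugars, had the same course. Sdhd in granulosa was 94.4 to 27.8 CPM and then 31.7, 78.5 and 85.7 CPM, and Ost4 was 133 to 43.02 CPM and then 44.4, 109 and 143 CPM. Rasd1, a small GTPase induced by glucocorticoids, was 3.64-fold lower in granulosa and 3.91-fold lower in mesenchyme and belonged to the same set. Gatm, an enzyme of creatine synthesis, measured 494 CPM (488 to 501) at 2 wk and 71.7 CPM (69.2 to 74.2) at 3 wk in granulosa, and its mesenchymal level was under 10% of the granulosa level, where free RNA from granulosa cannot be told apart from expression.

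Outside that set, 28 genes were past 2-fold lower in both lineages at levels within 10-fold of each other, and 7 of them had a mean of at least 20 CPM in both. Igfbp5, which binds insulin-like growth factors, had the highest levels. It measured 858 CPM (849 to 867) at 2 wk and 270.1 CPM (265 to 275) at 3 wk in granulosa, 3.18-fold lower (3.11 to 3.24) at 3 wk. In mesenchyme it measured 345 CPM (340.04 to 350.5) at 2 wk and 111 CPM (107 to 115) at 3 wk, 3.102-fold lower (2.98 to 3.23). Its later levels were 37.99, 92.2 and 117 CPM in granulosa and 110.4, 174 and 126 CPM in mesenchyme, all below the 2 wk level of the same lineage. Vcan, the large matrix proteoglycan versican, went from 339 to 161 CPM in granulosa and from 180.3 to 86.8 CPM in mesenchyme, and stayed between 64.2 and 105 CPM in granulosa at 4 to 6 wk. Acot1, an acyl-CoA thioesterase induced by fasting through PPAR alpha, went from 144 to 52.6 CPM and from 94.9 to 34.4 CPM. Its later levels in granulosa were 25.9, 41.98 and 43.8 CPM. Igfbp5 and Acot1 lay outside the set, which asks for every group of cells, but their granulosa levels were lowest at 4 wk. Myc, the growth-promoting transcription factor, went from 104 to 32.4 CPM and from 67.5 to 22.4 CPM, but stood at 73.5 and 71.8 CPM at 5 wk. H1f0, a linker histone, was 2.18-fold lower and 2.44-fold lower, H2afy2, the histone variant macroH2A2, 2.29-fold lower and 2.09-fold lower, and Mpv17, a mitochondrial inner membrane protein, 2.15-fold lower and 2.16-fold lower in granulosa and mesenchyme.

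The genes higher in both lineages held stress-response and heat-shock genes. Of these 18 genes, 6 (33.3%) were among the 64 genes high at 4 wk, against 0.717% of all genes. Of the 444 genes low at 4 wk, 1 was among the 18. Atf3, a transcription factor induced by cellular stress, measured 51.9 CPM (49.8 to 54.1) at 2 wk and 155 CPM (151 to 158) at 3 wk in granulosa and 354 CPM (349 to 359) at 2 wk and 988 CPM (976 to 1000.2) at 3 wk in mesenchyme. It was also higher at 4 wk than at 5 and 6 wk in every group of cells, as were Dnajb1, an Hsp40 cochaperone, and Rpgrip1, a ciliary protein of photoreceptors. Dnajb1 went from 128 to 307 CPM in granulosa and from 225 to 506 CPM in mesenchyme, and Rpgrip1 was 2.21-fold higher and 2.34-fold higher. Nupr1, a small nuclear protein induced by stress, was highest in granulosa at 4 wk but did not stand apart in every group of cells. It measured 32.2 CPM (30.6 to 33.97) at 2 wk and 120.2 CPM (117 to 124) at 3 wk in granulosa, 3.73-fold higher (3.52 to 3.96), with 568, 324 and 230.4 CPM afterwards. In mesenchyme it measured 76.2 CPM (73.8 to 78.7) at 2 wk and 210.4 CPM (205 to 216) at 3 wk, 2.76-fold higher (2.65 to 2.88), with 305, 236 and 299 CPM afterwards. Jun, a subunit of the AP-1 transcription factor, went from 1088 to 2495 CPM in granulosa and from 2003 to 4439.8 CPM in mesenchyme and stood at 1604 and 2399 CPM at 6 wk. Hsph1, a large heat-shock protein, was 2.06-fold higher (1.99 to 2.14) in granulosa and 2.23-fold higher (2.11 to 2.35) in mesenchyme. Cxcl10, a chemokine induced by interferon, went from 22.1 to 46.7 CPM and from 12.9 to 39.3 CPM, and Tnfrsf12a, the receptor of TWEAK, from 16.3 to 50.1 CPM and from 38.2 to 78.2 CPM. Of the 18 genes higher in both lineages, 14 were also past 2-fold higher in the cells of neither lineage. Of all 8921 genes, 363 were past 2-fold there in the direction of their granulosa ratio. Cells were dissociated at 37 °C at both ages. How far handling of the tissue differed between the libraries was not tested.

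The promoters of Jun, an immediate-early gene, and Hsph1, a heat-shock gene, are shown as examples of genes higher at 3 wk in both lineages. Other immediate-early genes were lower in both, as given below. The sequences are RefSeq windows of the GRCm38.p6 build, from 250 bases before to 50 after a start. Capitals mark the palindromic heat-shock half-site pair GAANNTTC or the AP-1/CRE-like site TGACNTCA. Each was searched on the strand shown only. GAANNTTC reads the same on the other strand, and TGACNTCA does not.
Jun (chr4:95052173-95052472, minus strand): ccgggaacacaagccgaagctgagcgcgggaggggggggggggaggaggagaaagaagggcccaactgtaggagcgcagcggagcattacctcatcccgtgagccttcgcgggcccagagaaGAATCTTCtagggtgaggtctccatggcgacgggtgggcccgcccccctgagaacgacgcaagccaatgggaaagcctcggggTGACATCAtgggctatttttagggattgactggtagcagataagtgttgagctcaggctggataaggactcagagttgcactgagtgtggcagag
Hsph1 (chr5:149636287-149636586, minus strand): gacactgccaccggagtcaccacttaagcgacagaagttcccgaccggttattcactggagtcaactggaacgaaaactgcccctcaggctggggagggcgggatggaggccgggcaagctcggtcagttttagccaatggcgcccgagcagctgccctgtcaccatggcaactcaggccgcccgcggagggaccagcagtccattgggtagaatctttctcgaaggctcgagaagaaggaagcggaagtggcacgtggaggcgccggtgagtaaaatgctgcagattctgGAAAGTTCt
GAANNTTC occurred in a window of 3 of the 8 named genes (Hsph1, Jun and Rpgrip1) and in 7.86% of 32851 promoter windows of the same length. A named gene counted if any of its windows matched, so counts by gene and shares by window are not in the same unit. The windows of Dnajb1, also a heat-shock gene, held no GAANNTTC. On the strand shown, TGACNTCA occurred in 1 of the 8 (Jun) and in 5.57% of all windows. These matches describe the letters of the windows only.

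**Figure D2:**
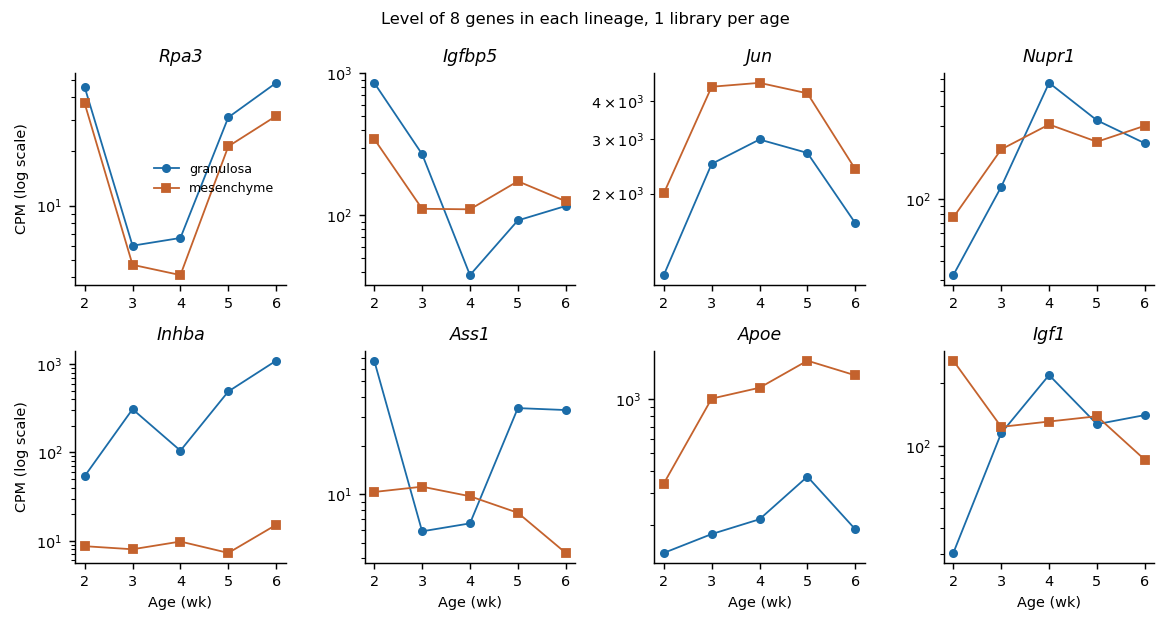
Levels of 8 genes in CPM on a log axis against age in weeks, with circles for granulosa and squares for mesenchyme and 1 library per point. Rpa3 was low at 3 and 4 wk in both lineages, Igfbp5 was highest at 2 wk, Jun and Nupr1 were higher from 3 wk in both, Inhba and Ass1 differed between 2 and 3 wk in granulosa, Apoe differed in mesenchyme, and the Igf1 lines cross.

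The genes higher in granulosa alone were led by Slc38a5 and Inhba. Inhba encodes the beta A subunit shared by inhibin A and activins and lies on chr13:16011851-16031621. It measured 53.9 CPM (51.7 to 56.1) at 2 wk and 309 CPM (304 to 314) at 3 wk in granulosa, 5.73-fold higher (5.48 to 5.99), and 8.68 CPM (7.87 to 9.54) at 2 wk and 8.01 CPM (6.97 to 9.16) at 3 wk in mesenchyme. Averaged over both ages, the mesenchymal level of Inhba was under 10% of the granulosa level. Free RNA from granulosa cannot be told apart from expression there. A UMI of Inhba was found in 4.63% and 16.8% of granulosa cells at 2 and 3 wk after thinning to 5000 UMIs, and in 7.70% and 23.7% before thinning. Its ratio depended on which cells were counted, at 3.40-fold after thinning, 3.504-fold without cells that had a UMI of Mki67 or Top2a, and 16.1-fold in granulosa cells with Amh. Later granulosa levels were 105, 489.9 and 1093 CPM, so 4 wk lay below 3 wk. Slc38a5, a neutral amino acid transporter, measured 7.21 CPM (6.43 to 8.05) at 2 wk and 57.04 CPM (54.8 to 59.3) at 3 wk in granulosa, 7.91-fold higher (7.03 to 8.93). In mesenchyme it went from 34.6 to 23.3 CPM, and in granulosa it stood at 207, 250.01 and 213 CPM at 4, 5 and 6 wk. Slc38a5 kept its place in granulosa alone in 11 of 15 alternatives. Csrp2, a LIM domain protein, went from 44.02 to 199.9 CPM in granulosa (4.54-fold higher) and from 211 to 193 CPM in mesenchyme. Dock4, an exchange factor for small GTPases, went from 25.8 to 80.1 CPM, and Pdlim4, an actin-associated PDZ-LIM protein, from 29.5 to 71.9 CPM, while their mesenchymal levels were 34.1 to 33.1 CPM and 44.3 to 43.5 CPM. Htra1, a secreted serine protease, was already expressed at 2 wk. It measured 218 CPM (213 to 222) at 2 wk and 559 CPM (552 to 566) at 3 wk in granulosa against 272 to 272 CPM in mesenchyme, with 725, 576 and 541 CPM in granulosa afterwards. Of the 28 genes higher in granulosa alone, 2 were past 2-fold higher in the cells of neither lineage. Of all 8921 genes, 363 were past 2-fold there in the direction of their granulosa ratio. Within granulosa, 6 of the 28 were at least 1.5-fold higher at 4 wk than at 5 and 6 wk, against 2.57% of all granulosa genes, and 2, Inhba and Thbs4, were lower.

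Genes lower in granulosa alone took in metabolic, signalling and matrix enzymes. Ass1, argininosuccinate synthase of arginine synthesis (chr2:31470207-31520672), measured 67.3 CPM (64.8 to 69.7) at 2 wk and 5.88 CPM (5.18 to 6.65) at 3 wk in granulosa, 11.4-fold lower (10.1 to 13.1). Its mesenchymal level was 10.3 to 11.1 CPM, and a UMI was found in 17.1% and 2.302% of thinned granulosa cells. Granulosa levels at 4, 5 and 6 wk were 6.59, 34.2 and 33.2 CPM, so Ass1 was low in granulosa at 3 and 4 wk. Pak3, a kinase activated by small GTPases, measured 129 CPM (126 to 133) at 2 wk and 51.5 CPM (49.4 to 53.7) at 3 wk, and Tnik, a kinase that acts in WNT signalling, 29.03 CPM (27.5 to 30.7) at 2 wk and 11.2 CPM (10.2 to 12.2) at 3 wk. Their later granulosa levels were 46.4, 95.9 and 98.1 CPM and 5.56, 9.36 and 5.02 CPM. The mesenchymal level of Pak3 was 5.02 to 7.48 CPM, on average under 10% of the granulosa level, where free RNA cannot be told apart from expression. Pak3 kept its place in granulosa alone in 5 of 15 alternatives. Ifitm1, an interferon-induced membrane protein, went from 144 to 41.9 CPM in granulosa and from 184 to 188 CPM in mesenchyme. Pkdcc, a secreted tyrosine kinase, went from 34.1 to 8.23 CPM and from 114 to 86.1 CPM, and Hs3st1, a heparan sulfate sulfotransferase that stood apart at 4 wk, from 50.7 to 9.81 CPM and from 6.13 to 5.86 CPM. Within granulosa, 23 of the 44 lower genes were at least 1.5-fold lower at 4 wk than at 5 and 6 wk, against 11.5% of all granulosa genes, and Ass1, Pak3, Hs3st1 and Pkdcc were among them. Tnik and Ifitm1 were not. In the cells of neither lineage 10 of the 44 were also past 2-fold lower, against 363 of all 8921 genes in the direction of their granulosa ratio.

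Few genes were past 2-fold in mesenchyme alone, and Apoe had the highest level of the higher ones. Within mesenchyme, 4 of the 6 higher genes were at least 1.5-fold higher at 4 wk than at 5 and 6 wk, against 4.28% of all mesenchymal genes. Apoe, the lipoprotein that carries cholesterol (chr7:19696109-19699188), measured 339 CPM (334 to 344) at 2 wk and 1004 CPM (992 to 1016) at 3 wk, 2.96-fold higher (2.903 to 3.02). In granulosa it went from 139.7 to 178 CPM, and mesenchyme kept 1153, 1629.9 and 1352 CPM at 4, 5 and 6 wk. A UMI of Apoe was found in 66.6% and 87.8% of thinned mesenchymal cells at 2 and 3 wk. Bpgm, which makes bisphosphoglycerate in glycolysis, went from 33.9 to 86.4 CPM in mesenchyme against 14.2 to 13.5 CPM in granulosa, and Hk2, hexokinase 2, from 38.1 to 83.03 CPM against 31.7 to 34.5 CPM. Hsd3b1, a steroid dehydrogenase that makes progesterone, went from 22.05 to 51.6 CPM in mesenchyme, where it reached 8.19% of the granulosa level of 629.5 CPM, and free RNA cannot be told apart from expression there. A UMI of Hsd3b1 was found in 5.56% and 7.93% of thinned mesenchymal cells, and its mesenchymal ratio was 1.55-fold after thinning or with at least 6 Dcn UMIs, and 4.79-fold in cells without Cyp17a1 and low in Acta2.

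The genes lower in mesenchyme alone held secreted and matrix proteins. Nrep, a small protein of wound fibroblasts and regenerating neurons, measured 149 CPM (145 to 152) at 2 wk and 59.9 CPM (56.97 to 62.9) at 3 wk, with 61.2, 47.5 and 57.4 CPM afterwards. Ctgf and Cyr61 encode matricellular proteins of 1 family that respond to YAP. Ctgf went from 114 to 34.6 CPM and Cyr61 from 398 to 129 CPM in mesenchyme, against 70.3 to 50.4 CPM and 248 to 168 CPM in granulosa, where both were lower at 3 wk by less than 1.5-fold. Cyr61 was at 98.6, 179 and 304 CPM later. Col4a3, a basement membrane collagen chain, went from 58.02 to 25.3 CPM, and Slc6a6, the taurine transporter, from 39.7 to 19.2 CPM. Within mesenchyme, 3 of these 12 genes were at least 1.5-fold lower at 4 wk than at 5 and 6 wk, against 8.51% of all mesenchymal genes, and Cyr61 was among them. Of the 12, 6 were also past 2-fold lower in the cells of neither lineage. The count over all 8921 genes (363) was taken in the direction of the granulosa ratio, so it is not matched to these 12.

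**Figure D3:**
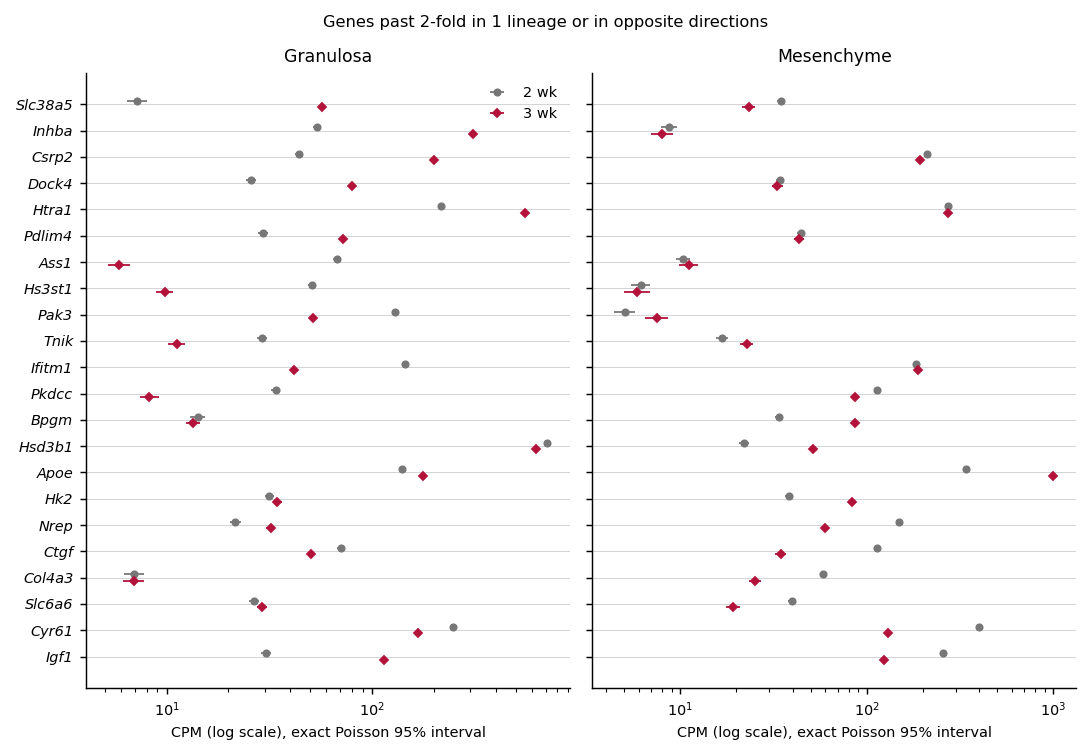
Levels at 2 wk (circles) and 3 wk (diamonds) of 21 genes past 2-fold in 1 lineage alone and of Igf1, in CPM on a log axis with exact Poisson 95% intervals, with granulosa on the left and mesenchyme on the right. The symbols part by at least 2-fold in 1 panel and lie within 1.5-fold in the other, some near that limit. The exception is Igf1, which is higher at 3 wk on the left and lower on the right.

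Igf1, insulin-like growth factor 1, was past 2-fold higher in granulosa and lower in mesenchyme (chr10:87858265-87937042). It measured 30.4 CPM (28.8 to 32.1) at 2 wk and 115 CPM (112 to 118) at 3 wk in granulosa, 3.78-fold higher (3.56 to 4.02), and 257 CPM (253 to 262) at 2 wk and 123 CPM (119 to 128) at 3 wk in mesenchyme, 2.09-fold lower (2.01 to 2.17). The ratio of the ratios, granulosa over mesenchyme, was 7.88 (7.33 to 8.47). At 2 wk mesenchyme had the higher level, and at 3 wk both lineages stood near each other. After thinning, a UMI of Igf1 was found in 11.9% and 34.9% of granulosa cells and in 46.1% and 34.4% of mesenchymal cells at 2 and 3 wk. Granulosa stood at 219, 127 and 141 CPM and mesenchyme at 131, 139 and 85.6 CPM at 4, 5 and 6 wk. The mesenchymal log2 ratio lay between -1.21 and -0.81 over the alternatives and was under 2-fold in 6 of 12, so its place past 2-fold is not firm there, while the direction held in all 12. Ryr2, a calcium release channel, went the other way, from 31.7 to 15.5 CPM in granulosa and from 4.72 to 11.8 CPM in mesenchyme. Its mesenchymal mean was under the 20 CPM set for naming a gene, and it is named after its values were seen because it is the only gene of its kind. Later it stood at 5.82, 9.07 and 7.36 CPM in granulosa and at 11.7, 10.1 and 11.7 CPM in mesenchyme.

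**Figure D4:**
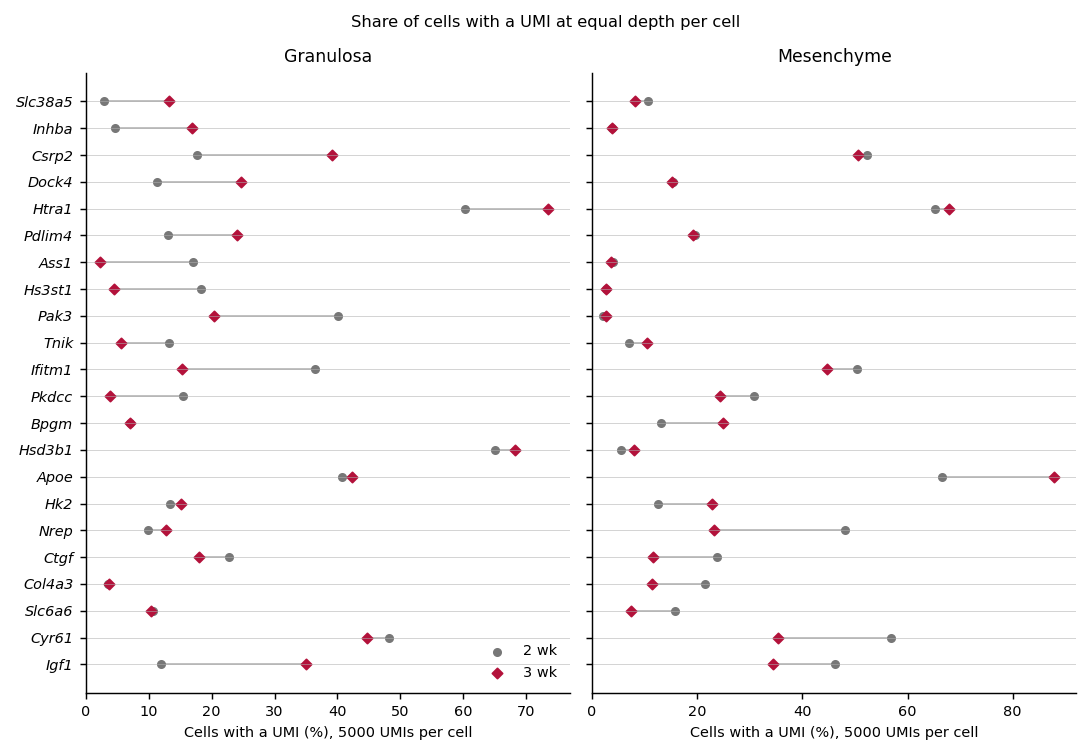
Share of cells with at least 1 UMI of the same 22 genes at 2 wk (circles) and 3 wk (diamonds), after each cell was thinned to 5000 UMIs, with granulosa on the left and mesenchyme on the right. For Inhba the granulosa share goes from 4.63% to 16.8%, and for Apoe the mesenchymal share is the higher one at 3 wk.

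Genes read in 1 lineage only, under 5 CPM in the other, were ranked in the same way after their values were seen. Of 9745 genes read in granulosa and 9913 in mesenchyme, 8921 were read in both. In granulosa 37 of the 132 genes past 2-fold higher and 82 of the 373 past 2-fold lower were read there only. Of these, 5 and 28 stood apart at 4 wk. In mesenchyme 33 of the 67 higher and 85 of the 345 lower were read there only, of which 3 and 34 stood apart. Standing apart asks for every group of cells, also the lineage under 5 CPM, so these counts may leave genes out. Among the higher granulosa genes, Slc38a3, a glutamine transporter, went from 10.6 to 31.6 CPM and then stood at 41.7, 47.3 and 58.5 CPM. Mpped2, a phosphodiesterase-like protein, went from 11.01 to 32.9 CPM and then stood at 68.4, 69.7 and 109 CPM, and Mybpc3, a myosin-binding protein, from 9.26 to 39.5 CPM. Both transporters, Slc38a3 and Slc38a5, were thus higher in granulosa at 3 wk. Among the lower granulosa genes, Rhox8, a homeobox factor of the reproductive tract, went from 97.6 to 21.9 CPM and stayed low at 5.42, 18.4 and 14.6 CPM. Gstm6, a glutathione transferase, went from 94.7 to 25.6 CPM and then stood at 4.77, 8.72 and 11.1 CPM, and Scube1, a secreted EGF-like protein, from 69.8 to 23.6 CPM. Sox18 (from 78.996 to 3.97 CPM) and Susd3 (from 127 to 29.2 CPM) were lower too and stood apart at 4 wk. Rhox8, Gstm6 and Scube1 did not, but their granulosa levels were also lower at 4 wk than at 5 and 6 wk. Among the higher mesenchymal genes, Rbp4, the carrier of retinol, went from 32.7 to 86.5 CPM, Cd24a, a surface glycoprotein, from 36.6 to 89.8 CPM, and Stc1, the hormone stanniocalcin, from 26.5 to 65.5 CPM. Bdnf, a neurotrophin, went from 13.8 to 35.8 CPM, and C3, the central complement component, from 12.8 to 37.1 CPM. Rbp4, Cd24a, Stc1 and Bdnf kept levels above 2 wk at each later age, while C3 was below its 2 wk level at 6 wk (10.2 CPM). Among the lower mesenchymal genes, Dlk1, an imprinted Notch-related protein of fetal and progenitor cells, went from 70.6 to 20.9 CPM and on to 4.76, 2.59 and 1.11 CPM. Adamts5, a protease of proteoglycans, went from 59.1 to 13.5 CPM and stayed at 16.9, 26.8 and 21.8 CPM, and Nrk, a kinase, from 104 to 34.8 CPM. Tcf21, a transcription factor of ovarian stroma, went from 412 to 106 CPM and Penk, proenkephalin, from 162 to 45.3 CPM, and both stood apart at 4 wk.

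Gene lists were read against the background of all genes, given by lineage above. In the list of inhibin, activin and anti-Müllerian hormone genes, granulosa had 1 higher and 1 lower of 11 genes past 2-fold. The median log2 ratio was 0.24. Inhba was higher, and Smad3, a mediator of activin signals, was lower at the 2-fold limit (log2 ratio -1.01). Within granulosa, both were at least 1.5-fold lower at 4 wk than at 5 and 6 wk. Inhbb, the beta B subunit, went from 198 to 364 CPM, Amh, anti-Müllerian hormone, from 591 to 813 CPM, and Fst, the activin-binding follistatin, from 239 to 339 CPM, all below 2-fold, and Amh stood apart at 4 wk. Foxl2, the transcription factor that maintains granulosa identity, was 2.45-fold lower (2.38 to 2.52) in granulosa (401 to 164 CPM) and then stood at 85.9, 131 and 179.5 CPM. Foxl2 did not stand apart in every group of cells, but its granulosa level was lowest at 4 wk. Esr2, estrogen receptor beta, went from 72.1 to 138 CPM. The aromatase gene Cyp19a1 (10.6 to 8.205 CPM) and the FSH receptor gene Fshr (7.51 to 5.56 CPM) were near the limit of 5 CPM at both ages. Of 19 steroid synthesis genes, 16 were read in granulosa with 0 higher and 4 lower, but Cyp17a1, Cyp11a1 and Nr0b1 stood apart at 4 wk. Cyp17a1, which makes androgen in theca, was at 26.1 CPM (24.6 to 27.7) at 2 wk and 1.56 CPM (1.21 to 1.98) at 3 wk in granulosa. It was at 436 CPM at 5 wk. Free theca RNA, or theca cells that passed the granulosa choice, cannot be told apart from granulosa expression there. The fourth was Akr1c18, which inactivates progesterone, with 12.2 to 1.63 CPM.

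Growth factor signalling genes past 2-fold in granulosa included WNT and Notch genes, all lower. Of 11 WNT genes read in granulosa, 3 were past 2-fold lower and none higher, with a median log2 ratio of -0.71 against -0.07 for all genes. Wnt6 went from 176 to 63.6 CPM, the receptor Fzd6 from 8.27 to 2.65 CPM and the WNT target Axin2 from 34.3 to 12.3 CPM. In mesenchyme 3 of 14 were lower, Axin2 (13.3 to 6.35 CPM), the WNT effector Tcf7 (13.1 to 5.2998 CPM) and the receptor Fzd1, which stood apart. Of 6 Notch genes in granulosa, Notch1 (8.24 to 2.72 CPM) and the target Hey1 (17.4 to 8.27 CPM) were past 2-fold lower, with a median of -0.89, or -0.80 without the 1 that stood apart. Wnt6 and Notch1 did not stand apart in every group, but within granulosa both were at least 1.5-fold lower at 4 wk than at 5 and 6 wk. In mesenchyme the target Hes1 (471 to 204 CPM) was lower and the median of 7 genes was 0.09. In the IGF system, Igfbp4 was higher in granulosa (13.4 to 27.5 CPM), Igfbp2 lower in mesenchyme (18.1 to 7.18 CPM), and Igfbp5 lower in both. Of the hedgehog genes none passed 2-fold among 5 in granulosa and 8 in mesenchyme. Among imprinted genes of fetal growth, Peg3 was lower in granulosa (109 to 48.4 CPM) and Dlk1 in mesenchyme. Pdgfra, the PDGF receptor of fibroblasts, was 2.32-fold lower (2.23 to 2.41) in mesenchyme (262 to 113 CPM).

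Cell cycle genes differed between the lineages in their lists. Of 20 genes of G2 and mitosis, none passed 2-fold in granulosa, with a median log2 ratio of 0.00, while 4 were lower in mesenchyme with a median of -0.59. Bub1, a spindle checkpoint kinase, went from 16.8 to 8.08 CPM in mesenchyme and from 18.9 to 20.8 CPM in granulosa, Cenpa, the centromeric histone, from 60.5 to 28.7 CPM and from 44.9 to 40.05 CPM, and Aurkb from 22.1 to 8.87 CPM and from 20.3 to 13.6 CPM. The fourth, Cdk1, stood apart at 4 wk. S phase genes had medians of 0.13 and -0.11, with only Rrm2 past 2-fold, lower in mesenchyme. The share of cells with a UMI of Mki67 or Top2a was 21.1% (19.8% to 22.5%) at 2 wk and 15.8% (14.5% to 17.2%) at 3 wk in mesenchyme, and 14.8% (13.7% to 16.03%) and 13.5% (12.1% to 14.96%) after thinning. In granulosa it was 34.99% and 37.97%, and 20.3% and 26.2% after thinning. At equal depth the intervals of the mesenchymal shares overlapped.

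Genes against oxidants and of glutathione conjugation past 2-fold in granulosa were mostly lower. Of 26 read there, 8 were past 2-fold lower and 1 higher, against 3 lower of 25 in mesenchyme, with medians of -0.59 and -0.18. Gstm2, a glutathione transferase, was the most abundant of the lower ones, with 1128 CPM (1118 to 1138) at 2 wk and 494 CPM (488 to 501) at 3 wk, and then 188, 283 and 234 CPM. Gstm1 went from 702 to 334 CPM, Gsta4 from 281 to 81.4 CPM, Mt3, a metallothionein, from 109.9 to 49.4 CPM, and Sod3, the extracellular superoxide dismutase, from 10.7 to 3.37 CPM. Gstp1 and Mgst3 were lower in both lineages and stood apart at 4 wk. Without the 5 genes of the list that stood apart, 6 of 21 were lower and 1 higher in granulosa and the median was -0.33, and in mesenchyme 1 of 20 was lower with a median of -0.14. Gsta4 and Sod3 were kept here, but within granulosa both were at least 1.5-fold lower at 4 wk than at 5 and 6 wk. Gpx3, a secreted glutathione peroxidase, was the higher one, from 16.002 to 41.1 CPM, and later stood at 236, 169.8 and 129 CPM. In mesenchyme these genes differed less, with 422 to 347 CPM for Gstm2 and 104 to 131 CPM for Gpx3.

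Collagens on the list that passed 2-fold were lower in granulosa, and the listed collagens stayed within 2-fold in mesenchyme. Of 14 collagen genes read in granulosa 4 were past 2-fold lower, and of 21 in mesenchyme none was, with a median log2 ratio of -0.33. Col4a3, which was past 2-fold lower in mesenchyme, is not on the list. Col18a1, a basement membrane collagen, measured 317 CPM (311 to 322) at 2 wk and 158 CPM (154 to 162) at 3 wk in granulosa against 14.97 to 11.5 CPM in mesenchyme, and then stood at 46.5, 48.5 and 48.3 CPM. Col8a1 went from 14.97 to 3.603 CPM. Col3a1 (35.3 to 13.6 CPM) and Col5a2 (11.9 to 4.02 CPM) stood in granulosa at 1.83% and 7.93% of their mesenchymal level at 2 wk, and free RNA from mesenchyme cannot be told apart from expression there. Among matrix proteases, Htra3 (49.2 to 16.8 CPM), Plau (35.4 to 15.6 CPM) and Mmp14 (75.3 to 37.6 CPM) were lower in granulosa and Htra1 higher. In mesenchyme Adamts5 was lower. All 15 genes of smooth muscle contraction stayed within 2-fold in mesenchyme, with a median of 0.04.

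Stress and metabolic lists complete the comparison. Heat-shock genes had medians of 0.35 in granulosa and 0.48 in mesenchyme, with 2 of 14 and 3 of 14 past 2-fold, all higher, and without the 3 that stood apart 1 of 11 and 2 of 11. Hspa5, the chaperone of the endoplasmic reticulum, was the third in mesenchyme (1067 to 2144 CPM), while Hspa1a, an inducible Hsp70, went from 21.4 to 15.7 CPM and from 203 to 182 CPM. Immediate-early genes were past 2-fold both ways, with 5 higher and 4 lower of 26 in granulosa and 2 higher and 6 lower of 27 in mesenchyme. Without the 4 that stood apart these were 4 higher and 2 lower of 22, and 1 higher and 3 lower of 23. Past 2-fold in both lineages, Jun and Atf3 were higher and Nr4a1, Zfp36 and Myc lower. Atf3, Nr4a1 and Zfp36 stood apart at 4 wk. Fosb (338 to 723 CPM), Ier3 (147 to 320.3 CPM) and Klf4 (53.3 to 118 CPM) were higher in granulosa and Socs3, an inhibitor of cytokine signals, lower (50.4 to 23.8 CPM). Fos itself went from 1268 to 1282 CPM and from 4090.01 to 3729 CPM. Of genes induced by glucocorticoids, 2 of 15 were lower in granulosa, and 4 of 14 were lower and 1 higher in mesenchyme. Zbtb16, a zinc finger transcription factor that stood apart at 4 wk, went from 18.7 to 3.21 CPM in granulosa and from 9.78 to 2.56 CPM in mesenchyme. Sult1a1 was lower in both lineages too, Fkbp5 (40.9 to 19.02 CPM) and Mt2 (71.3 to 29.4 CPM) in mesenchyme, and Cdkn1a, an inhibitor of the cell cycle, was higher there (40.2 to 90.8 CPM). None of the 20 nuclear genes of oxidative phosphorylation read in either lineage passed 2-fold, with medians of 0.15 and 0.04. The 13 mitochondrially encoded genes had medians of -0.42 and -0.52, and mt-Nd3, which stood apart at 4 wk, was past 2-fold lower in both lineages. Their share of UMIs also chose the cells (under 15%), so these medians depend on that filter and are a description only. These genes stayed in the counts of genes past 2-fold.

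**Figure D5:**
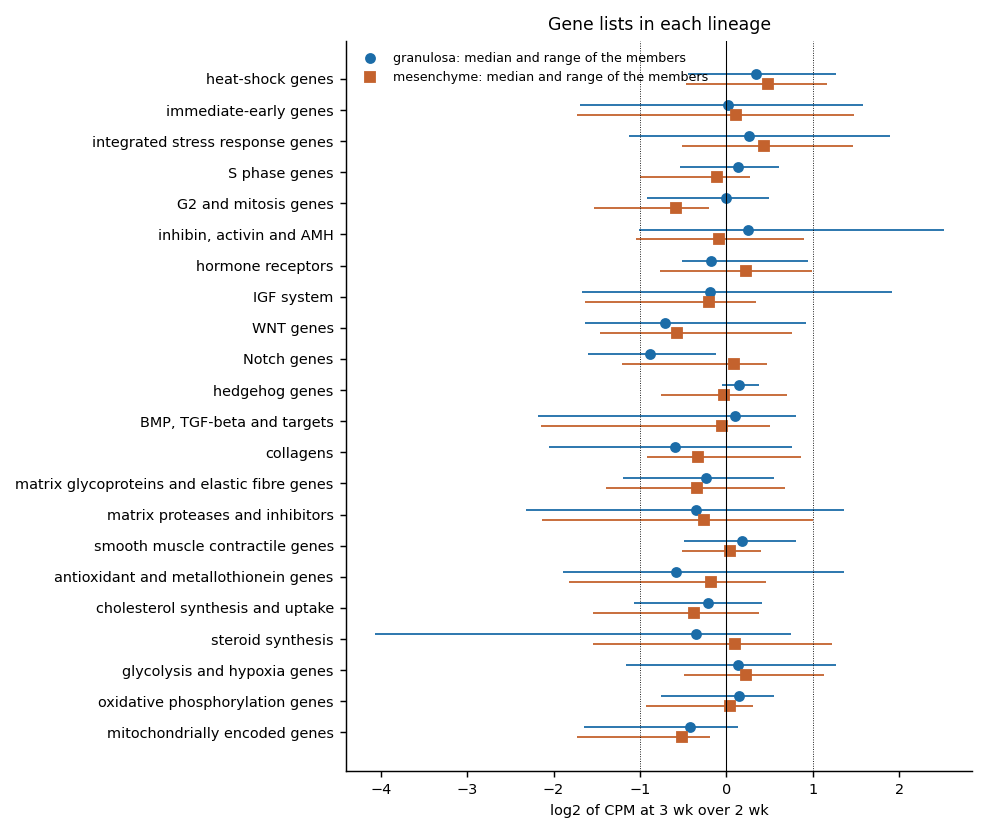
Median (symbol) and range (line) of the log2 ratio of CPM, 3 wk over 2 wk, over the members of 22 gene lists read in granulosa (circles) and mesenchyme (squares), with dotted lines at 2-fold. Notch and WNT genes, collagens and antioxidant genes have medians below -0.5 in granulosa (antioxidant genes -0.33 without those that stood apart at 4 wk), and G2 and mitosis genes, WNT genes and mitochondrially encoded genes do in mesenchyme. Mitochondrially encoded genes also served to filter the cells.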

How the data were processed

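Per the file headers and the labels, the authors used Cell Ranger 3.1.0 and GRCm38 (mm10) to count the UMIs of each gene in each cell at 2 to 4 wk, and the deposited matrices hold these counts as whole numbers for the barcodes that Cell Ranger kept. A later version of Cell Ranger made the 5 and 6 wk matrices. They were used for levels beside the comparison and to find the genes that stood apart at 4 wk. Cells were chosen by the rule given in the report, UMIs were summed per lineage and library, and CPM were compared for genes with a mean of at least 5 CPM. No cell was removed as a doublet. Scrublet (scanpy 1.11.5) marked 3.10% of cells at 2 wk and 2.51% at 3 wk, 0.715% and 0.875% of granulosa and 0.959% and 0.399% of mesenchymal cells, and these were left out as an alternative. For equal depth, each cell was thinned to 5000 UMIs, which left out 43 and 104 granulosa and 73 and 490 mesenchymal cells at 2 and 3 wk. Shares of cells with a UMI after thinning kept the lineages chosen on all UMIs. Ratios after thinning used lineages chosen again on the thinned counts.

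The named genes were, with a mean of at least 20 CPM, the 8 genes per direction whose weaker lineage differed most, the 6 per direction and lineage whose ratio differed most between the lineages, and members of 45 gene lists past 2-fold, without ribosomal, mitochondrial and numbered genes. A named gene and a member of a list are not reported here. The lineages and lists were chosen with earlier results of these data known. The ratio step was run on simulated Poisson counts in which 200 genes of each lineage were changed by well over 2-fold. It placed 200 of 200 past 2-fold in granulosa (9746 genes) and in mesenchyme (9915 genes), and no unchanged gene. Such counts hold no variation between mice or libraries, so this checked the calculation only. Alternatives to the scaling, the filters, the fold and the choice of cells numbered 15, and 4 were added after seeing the data. Python 3.11.15, numpy 2.4.6, pandas 2.3.3 and scipy 1.17.1 were used.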

Additional observations from a re-analysis of the deposited data

Results flagged for a closer look

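Igf1 and Ryr2 were flagged because their levels differed in opposite directions between the lineages. The log2 ratio of Igf1 (3 wk over 2 wk) was 1.92 in granulosa and -1.06 in mesenchyme. The log2 ratio of Ryr2 was -1.03 in granulosa and 1.33 in mesenchyme. With 1 library per age, the difference between the lineages was not tested. In the cells of neither lineage the level of both genes stayed within 1.5-fold between the ages.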

How the results depend on the processing

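No paired analysis was possible because each age has 1 library, and its replicate number is a name only. The counts of genes past the fold were 505 in granulosa, 412 in mesenchyme, 168 in both, 72 in granulosa alone and 18 in mesenchyme alone. In the same order they were 929, 821, 295, 169 and 64 at a mean of at least 1 CPM, 230, 172, 62, 25 and 7 at 20 CPM, 1563, 1523, 671, 263 and 153 at a fold of 1.5, and 124, 76, 27, 14 and 2 at a fold of 3. These follow from how many genes the limits admit. Without the genes that stood apart at 4 wk, the first 3 counts were 315, 205 and 42, and without these and the genes with one lineage under 10% of the other they were 258, 147 and 37. With granulosa limited to cells with Amh and mesenchyme to cells without Cyp17a1 and low in Acta2, mesenchyme alone held 40 genes, of which 12 were among the 18, and the cause was not tested. The other settings kept each count within 1.5 times.

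The share of granulosa cells was 19.6% and 30.9% at 2 and 3 wk with mitochondrial UMIs under 10%, 23.04% and 30.4% with at least 10 Inha UMIs, 31.0% at 3 wk with at least 2000 genes, and 22.6% at 2 wk after thinning. The share of mesenchymal cells was 32.8% and 21.5% with at least 6 Dcn UMIs, 22.9% at 3 wk with at least 2000 genes, and 29.8% and 18.0% after thinning.

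Of 56 ratios of named genes under 12 alternatives each, none changed direction, and 22 of 672 values, in 9 ratios, came under 2-fold. Named in mesenchyme were Bpgm, Col4a3, Hk2, Hsd3b1, Igf1, Slc6a6 and Tnfrsf12a, and in granulosa Cxcl10 and Pdlim4. The place of a gene in a class was less stable than its ratio. Of 22 named genes of both lineages, 9 kept it in all 15 alternatives and 20 in at least 12, and of 22 named in 1 lineage 3 kept it in all and 14 in at least 12. Pak3 kept it in 5, Igf1 in 8, Hk2 and Col4a3 in 9, and Nrep and Vcan in 10. Slc38a5, Slc6a6, Cyr61 and Tnfrsf12a kept it in 11. Depth limits the mesenchyme most, with 26605007 UMIs at 3 wk, and a gene with no UMI in a sum may still have 3.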
